A study of Sus scrofa with 24 samples.

Results

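In 6 domestic pigs the scar left by a myocardial infarct was compared with a normal region of the same heart, each pig serving as its own control. The pairs are those of the pigs numbered 10, 11, 14, 15, 16 and 18, chosen because these are the pigs with both an infarct core array and a normal region array. They give 12 of the 24 arrays of the series, 1 array per region and pig. All of these pigs had a closed-chest infarct that was reperfused, that is, the artery was blocked through a catheter and opened again. Per the labels, all received 250 mg aspirin and 300 mg clopidogrel a day before, and daily doses of 100 mg and 75 mg. Treatment was injected into the myocardium through a catheter when the infarct was 1 month old, and the hearts were sampled 1 month later. Pigs 11, 14, 15 and 16 received the secretome of apoptotic peripheral mononuclear blood cells, which is the mixture of products such cells release. Pigs 10 and 18 are marked as not treated and are taken here as the arm that received medium as placebo. The secretome arm thus has 4 pairs of arrays and the medium arm 2. The normal region lay away from the infarct in a heart that was infarcted and treated too, so no tissue of an uninjured pig enters the comparison. Pigs 12, 13 and 40 had an infarct core but no normal region array and are used only to look at the result in other animals. Of these, pigs 12 and 13 received the secretome, and pig 40 is marked as not treated and taken as medium arm.

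After a coronary artery is blocked, cardiomyocytes die, blood-borne and resident macrophages clear the debris, and fibroblasts fill the space with collagen. The core of a healed infarct is therefore rich in matrix-forming cells and poor in contracting muscle, while heart muscle away from it burns fatty acids in dense mitochondria. In whole tissue, a lower value of a gene can come from fewer cells of a type or from less of its RNA per cell, and these cannot be told apart here.

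RNA was labelled with Cy3 and hybridized to 1-colour Agilent porcine arrays, with 43603 probes per array. On the 12 arrays between 27832 and 32506 probes lay well above background, which is 63.8% to 74.5% of them. Both arrays of every pig lay on the same slide and in the same of 2 scan series, so slide and scan series are held by the pig. A level is given below as relative signal, which is the processed signal of the probe divided by the 75th percentile of the array, so that a value of 1 is the signal of a probe at that percentile. Levels of different genes come from different probes and are not compared. A difference is the log2 of the infarct core minus the log2 of the normal region within a pig. It is given as its mean over the 6 pigs ± the standard error from limma. That error uses a variance drawn toward the one typical of all probes. For genes that varied much between pigs it is smaller than their 6 differences alone would give. Tests are those of limma with the pig as a block, with Benjamini-Hochberg adjustment over all 30377 probes kept and a threshold of 0.05, and they measure the spread between these 6 pigs. A gene was read from its brightest named probe, which gave 6006 genes. Genes were grouped into 44 lists by function and cell type, and 828 of 1408 listed genes were measured, which required a signal well above background on at least 6 of the 12 arrays. A gene seen in the core alone or in the normal region alone could meet this through that region, so counts below describe the measured genes and not whole lists.

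More probes passed than did not. Of the 30377 probes, 7383 (24.3%) were higher and 9180 (30.2%) lower in the infarct core, together 54.5%. Among the probes without a gene symbol 49.4% passed. Of the 6006 genes, 1605 (26.7%) were higher and 1964 (32.7%) lower, and 2437 did not pass. The counts of the lists below are read against those shares of 26.7% and 32.7%. The median difference over all genes was -0.08, and the list medians below are read against that value. For bright genes and lists the difference depended on the scaling, as given below, so their distance from 0 is less certain. A change of over 2-fold past the threshold was measured for 743 genes (12.4%) in the higher and 687 (11.4%) in the lower direction. For 666 genes (11.1%) every infarct core value lay above every normal region value, and for 454 (7.56%) every one lay below. Over all genes 23.8% were higher in all 6 pigs and 28.8% lower in all 6. Of the 3569 genes past the threshold, 2936 moved in the same direction in all 6 pigs. For 2454 of these 3569 genes the levels of the regions overlapped between pigs, and the call rests on the difference within the pig.

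**Figure D1:**
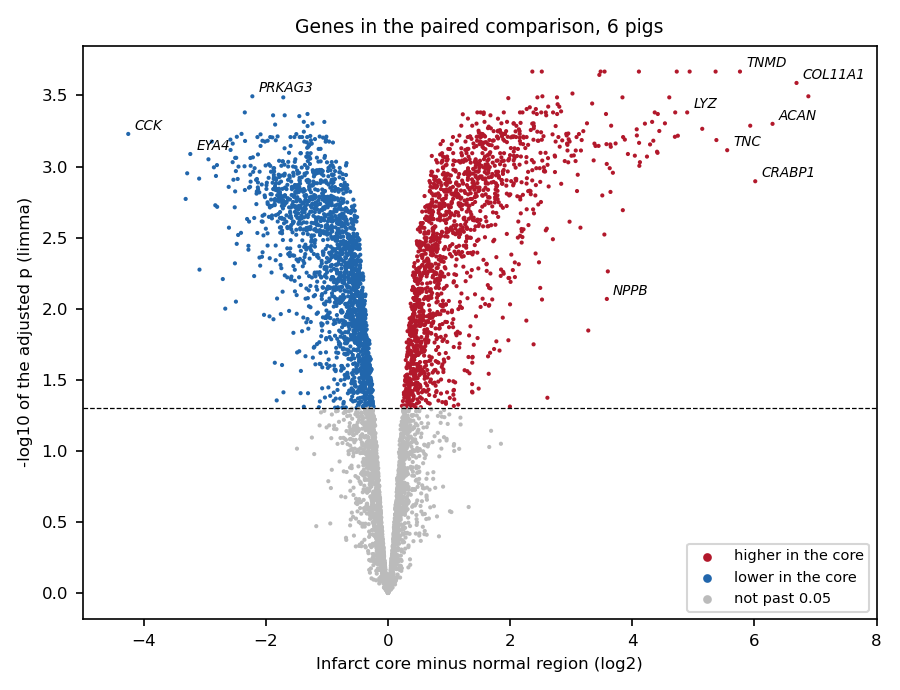
Difference between infarct core and normal region of each of the 6006 genes (horizontal axis, log2, mean of 6 pigs) against the adjusted p of limma (vertical axis, -log10), with genes past the threshold in colour. The 1605 higher genes reach further from 0 than the 1964 lower ones, with matrix genes such as COL11A1 and ACAN at the far right and CCK at the far left.

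PGM1 shows how the pairing works. It encodes phosphoglucomutase, which links glycogen and glycolysis. Its relative signal was 0.814 to 39.1 (median 21.8) in the normal region and 0.333 to 11.5 (median 6.31) in the infarct core, so the regions overlapped widely. In pig 11 both values were far below those of the other pigs, at 0.814 and 0.333. Within every pig the core was nonetheless lower, by differences of -1.85, -1.29, -1.80, -1.62, -1.96 and -1.76 in pigs 10, 11, 14, 15, 16 and 18. PGM1 fell by 1.71 ± 0.11 on the log2 scale (limma adjusted p = 0.000326). The deviations of the 2 arrays of a pig from their region means correlated between 0.141 and 0.838 over probes, with a mean of 0.575. Arrays of different pigs and regions averaged 0.317 in the same scan series and -0.476 in different ones, so both the pig and the scan series are shared within a pair.

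Pig 15 stood apart from the other 5. Its differences had a standard deviation of 0.68 over genes, against 0.99 to 1.28 in the others, and a slope of 0.38 on the mean of the other pigs, against 0.81 to 1.20. In pig 15 442 genes were over 2-fold higher and 134 over 2-fold lower, while the other pigs had 652 to 1081 and 529 to 1114. Of the 1605 genes called higher 170 had the opposite sign in pig 15, and of the 1964 called lower 286 did. In no other pig did these counts exceed 59 and 46. Its differences correlated with those of single other pigs at 0.531 to 0.640 over genes, while the other pigs correlated with each other at 0.777 to 0.913, and genes are not independent replicates. Without pig 15, 8294 probes were higher and 10344 lower, both within 1.5 times the counts with it. Without pig 15, XIRP2, CD3E and ACTC1 were past the threshold no longer among the genes named below, and NPPA, CXCR2, GATA2, LTF, CCL26 and BDNF then passed. Counts of the lists without that pig are given where they moved by 1.5 times or more.

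**Figure D2:**
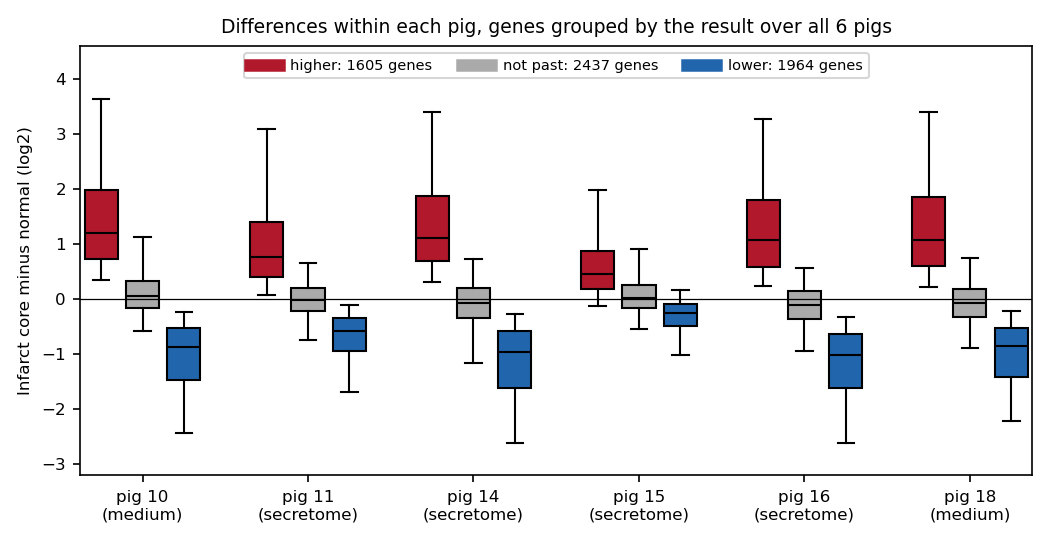
Differences between infarct core and normal region in each pig (vertical axis, log2) for genes called higher (1605), not past the threshold (2437) and called lower (1964); boxes span the quartiles with the median, whiskers the 5th to 95th percentile. The medians of the genes called higher are 1.19, 0.76, 1.11, 0.45, 1.07 and 1.07 in pigs 10, 11, 14, 15, 16 and 18, and those of the genes called lower are -0.88, -0.59, -0.97, -0.26, -1.02 and -0.86. The 6 pigs helped to choose these genes, so the boxes describe how evenly the pigs share the calls.

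Marker genes of cell types were checked against the labelled regions. The summed relative signal of 6 cardiomyocyte markers was 4278 to 7206 in the normal region and 2024 to 5886 in the infarct core, so the core tissue still held muscle RNA, and all 6 fell. The 4 measured fibroblast markers summed to at most 186 in the normal region and to 277 to 717 in the core, without overlap, and all 4 rose. The 4 macrophage markers summed to 12.9 to 24 and to 24.6 to 98.7, and all 4 rose. Of the 5 endothelial markers 3 fell and none rose, with sums of 35.0 to 87.0 and 27.1 to 59.1. Of 4 T cell markers 3 rose, with sums of 0.525 to 1.03 and 0.957 to 7.30. The sums of 2 mesothelial markers, KRT8 and KRT18, were 0.351 to 3.23 in the normal region and 3.70 to 11.3 in the core, and only KRT8 passed. The 3 measured skeletal muscle markers summed to 1182 to 1993 and 616 to 2035, and 2 of them fell. The 2 smooth muscle markers, ACTA2 and CNN1, summed to 345 to 782 and 187 to 804, and CNN1 rose. That sum is mostly the brightest ACTA2 probe, which did not pass at -0.56. Other ACTA2 probes rose, as given below, so the sum is not read as a change of smooth muscle. Only 1 marker was measured for B cells (MS4A1) and for red cells (HBB), both of them at low relative signals of 0.244 or less. The part that the changing mixture of cells plays in any single gene was not tested.

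Genes of fibrous matrix were much higher in the infarct core. Of 26 measured genes for collagens and their assembly into fibres, 24 were higher, against 26.7% of all genes, 1 was lower and 1 did not pass. The median difference was 2.24, against -0.08 over all genes, and for 19 members every core value lay above every normal region value, against 11.1% of all genes. The mean of the list was 0.97 to 2.89 in single pigs, lowest in pig 15. COL1A1, the main chain of scar collagen, had a relative signal of 1.07 to 11.8 (median 3.50) in the normal region and 25.0 to 126 (median 41.6) in the core. All 6 core values lay above all 6 normal region values, and the difference was 3.88 ± 0.40 (limma adjusted p = 0.000647). By pig it was 4.89, 3.96, 4.12, 1.58, 4.15 and 4.55, smallest in pig 15. In that pig the normal region value, 11.8, was the highest of the 6, and the core value, 35.3, was the fourth highest. Fibronectin, FN1, which carries the first matrix that cells attach to, was at 5.25 to 19.9 (median 7.50) in the normal region and at 105 to 254 (median 203) in the core, 20.6-fold higher. COL11A1, a fibril collagen of cartilage, went from 0.0429 to 0.348 (median 0.124) to 7.41 to 21.8 (median 13.1), a 103-fold increase over a normal region where 5 of 6 arrays measured it. COL12A1 (4.70) and COL1A2 (3.17) rose too, and in pig 15 the COL1A2 difference was 1.27. The exception in the list was FBLN5, an elastic fibre protein, which fell by 0.75 ± 0.12.

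COL1A1 was read from a single named probe, shown here because a main matrix result rests on it. Its 60 bases have a frame without a stop, as every probe printed below does, so this does not check the probe:
COL1A1: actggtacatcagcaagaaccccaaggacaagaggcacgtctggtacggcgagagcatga
A further probe without a symbol, described in the array files as similar to a bovine alpha-1(I) collagen, differed by -0.49 ± 0.15, lower in all 6 pigs. The named probe and that one thus went in opposite directions, and which transcript the second one reads is not given in the sources used here.

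Cartilage and tendon genes had the highest median of the 44 lists, 3.18, but under normexp and the authors' values it was 1.92 and 1.64, and those of matricellular genes and fibroblast lineage markers were higher. Of 10 measured, 8 were higher, and for 8 the regions did not overlap. ACAN, the aggregating proteoglycan of cartilage, was at 0.106 to 0.400 (median 0.169) in the normal region and at 5.21 to 52.9 (median 10.8) in the core, 78.5-fold higher. TNMD, a membrane protein of tendon cells, was well above background in the normal region of 1 pig and in the core of all 6, at 0.00595 to 0.0333 (median 0.0123) and 0.393 to 1.65 (median 0.534). The regions did not overlap (limma adjusted p = 0.000215), and no fold is given for it, since 5 of the 6 normal regions lay near background. TNMD was kept through its core arrays, so this p and the lack of overlap set a core signal against values near background. They are not read as a result. FMOD, a small proteoglycan that binds collagen fibrils, differed by 5.14 ± 0.47, with 2.35 in pig 15 and 5.70 without it. CHRDL1, an antagonist of bone morphogenetic proteins, rose by 1.20. COL10A1, a collagen of growth plate cartilage, fell by 0.65 ± 0.21, and was past the threshold no longer when pig 11, 14, 16 or 18 was left out.

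Matricellular proteins, which sit in the matrix and signal to cells, were higher too. Of 17 measured 16 were higher, with a median of 2.95 and pig means of 1.65 to 4.11. PTN, a heparin-binding growth factor, was at 0.583 to 2.08 (median 0.781) in the normal region and 18.6 to 78.4 (median 37.3) in the core, a difference of 5.36 ± 0.29. Tenascin C (TNC) rose by 5.55 ± 0.62 and periostin (POSTN) by 4.40 ± 0.49, and both had their smallest difference in pig 15, at 2.45 and 1.69. SFRP4, a secreted Wnt antagonist, rose by 4.07, SPARC by 2.39 and WISP2 by 2.58. No member fell.

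**Figure D3:**
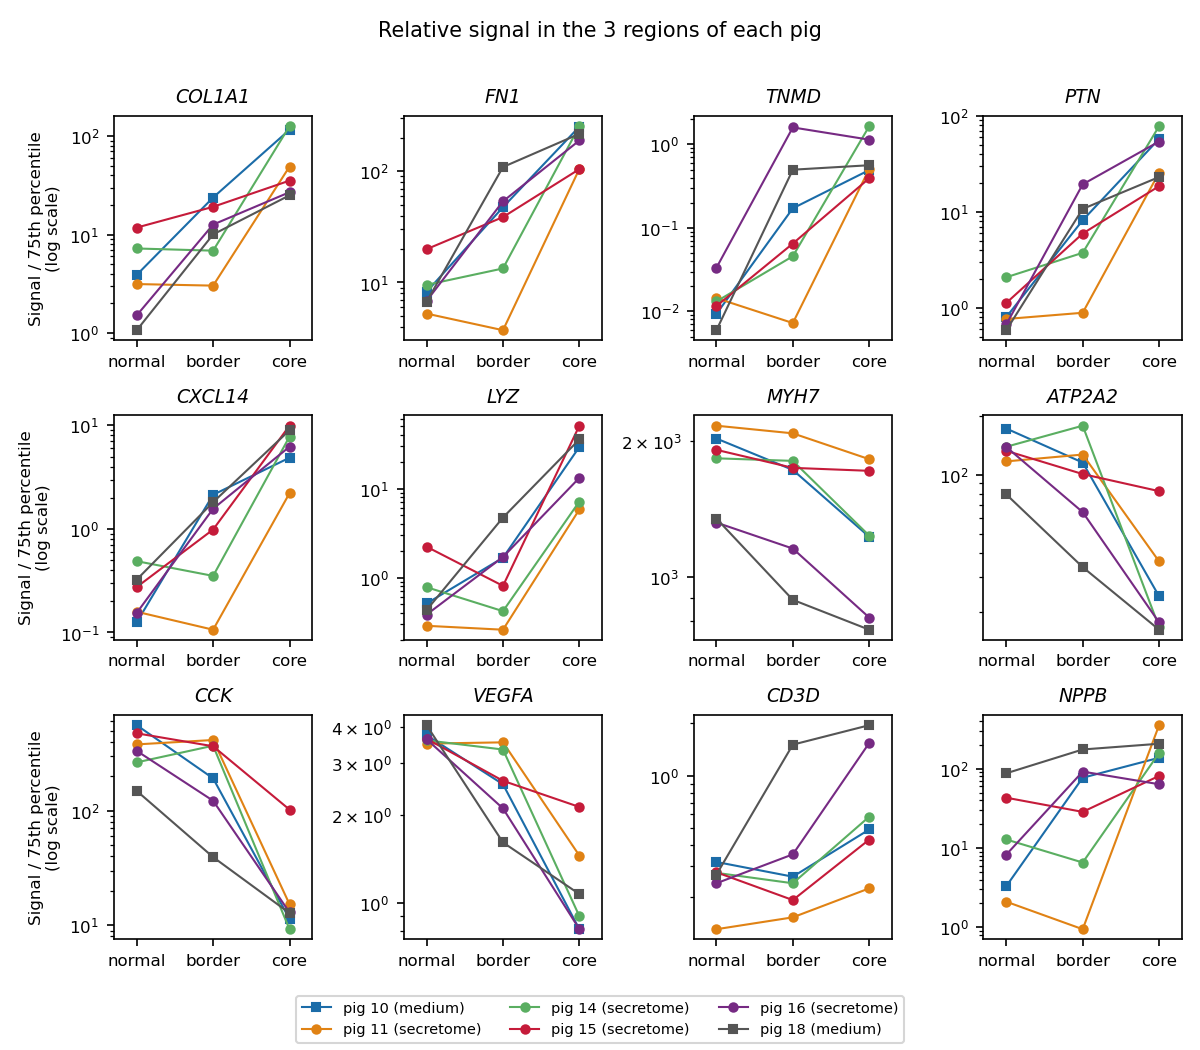
Relative signal (vertical axes, log scale) of 12 genes in the normal region, border zone and infarct core of each pig, joined by pig; squares are the medium pigs 10 and 18, circles the secretome pigs. All core values of COL1A1, FN1, TNMD, PTN, CXCL14 and LYZ lie above all normal region values, while MYH7, ATP2A2, CD3D and NPPB overlap. TNMD lay near background in most normal regions. Pig 15 has the flattest line for COL1A1 and ATP2A2.

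Fibroblast markers moved the same way. Of 13 lineage markers 12 were higher and none lower, with a median of 1.81. CDH11, the cadherin of mesenchymal cells, rose by 3.34 ± 0.23, vimentin (VIM) by 2.17, S100A4 by 2.81 and PI16, a marker of adventitial fibroblasts, by 4.07. In pig 15 the VIM difference was 1.14, against 2.25 to 2.46 in the others, while S100A4 was highest in pig 18 at 4.51. Of 22 genes of TGF-beta and BMP signalling 14 were higher, 1 was lower and 7 did not pass, with a median of 0.57. The ligand TGFB3 rose by 3.64 ± 0.39, the receptor TGFBR1 by 1.60, the activin subunit INHBB by 1.31 and the decoy receptor BAMBI by 1.22. The ligand TGFB1 rose by 0.43 ± 0.11, and the signal carrier SMAD3 fell by 0.44 ± 0.11.

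Genes of matrix turnover were higher as well. Of 26 proteases and inhibitors 18 were higher and 2 lower, with a median of 1.41. Without pig 15, 3 were lower, and without pig 10, 16 or 18 only 1 was. Cathepsin K (CTSK), a collagen-cutting protease, was at 5.87 to 9.42 (median 6.90) in the normal region and 32.3 to 69.7 (median 38.0) in the core, a difference of 2.51 ± 0.20. The gelatinase MMP2 rose by 2.21, the urokinase PLAU by 1.34 and the inhibitor TIMP1 by 1.63. MMP11 fell by 1.41 and MMP7 by 0.97. Basement membrane genes, which encode the sheets around muscle fibres and vessels, mostly did not pass: of 7 measured 2 were higher, LAMB1 (1.11) and LAMA4 (0.41), and 1 was lower, LAMC1 (-0.36). With so few genes these counts are near the shares over all genes, and the list median was 0.21. LAMC1 was past the threshold no longer when pig 10, 14, 16 or 18 was left out.

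Other signals to fibroblasts were mixed in direction. Of 21 Wnt and retinoid genes 14 were higher and 2 lower (3 without pig 15), with a median of 0.76. The retinoid-binding protein CRABP2 rose by 3.57. CRABP2 was not well above background on any of the 6 normal region arrays. Against the lowest signals that were, it was at least 2.46-fold higher, and such lower bounds are given below for other genes of this kind. The Wnt antagonist DKK2 rose by 3.04 ± 0.35 while its relative DKK1 fell by 1.87 ± 0.47. Retinol-binding protein 4 (RBP4) is uncertain, since its brighter probe fell by 0.85 and its dimmer probe rose by 1.90. Of 16 genes of the insulin-like growth factor system 7 were higher and 5 lower, the latter near the share over all genes, with a median of 0.26. The growth factor IGF1 rose by 1.96 ± 0.19 and the binding proteins IGFBP6 by 2.50 and IGFBP4 by 1.70, whereas the receptor IGF1R fell by 0.71, IRS1 by 0.58, IGFBP5 by 0.56, GRB10 by 0.80 and STC2 by 1.85. Of 23 genes of the endoplasmic reticulum and secretion 12 were higher and 1 lower (median 0.32). The collagen chaperones FKBP10 and FKBP14 rose by 2.73 and 2.06 and the vesicle proteins SEC22B and SEC23A by 1.07 and 0.92, while the signal peptidase subunit SPCS1 fell by 0.63.

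Macrophage genes were higher in the core. All 22 measured markers of macrophages and myeloid cells passed in the higher direction, with a median of 1.35, and in single pigs their mean was 0.82 to 1.90. Pig 11 had the lowest mean and pig 15, at 1.39, lay within the others. Lysozyme (LYZ), an antibacterial enzyme of phagocytes, was at 0.287 to 2.22 (median 0.469) in the normal region and 5.83 to 51 (median 19.7) in the core, 29.8-fold higher, and its difference in pig 15 was 4.52. CD163, the haemoglobin scavenger receptor of resident macrophages, overlapped at 7.42 to 16.6 (median 11.1) and 9.09 to 45.6 (median 28.6) and rose by 1.14 ± 0.17. Its difference was 0.29 in pig 11 and 1.04 to 1.48 in the others. AIF1 (1.86), TYROBP (1.52) and the myeloid transcription factor SPI1 (1.89) rose as well. SPI1 was not well above background on any normal region array and was at least 2.45-fold higher.

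Genes of lipid-handling and osteoclast-like macrophages split. Of 23 measured 14 were higher and 7 lower, with a median of 1.51. APOE, which carries lipids out of cells, was at 0.0618 to 0.438 (median 0.102) and 1.20 to 8.33 (median 2.22), 21.4-fold higher in the core. GPNMB, a glycoprotein of lysosome-rich phagocytes, was at 0.710 to 5.71 (median 1.57) and 17.0 to 47.0 (median 35.6) and rose on all 11 of its probes. ACP5, the acid phosphatase of osteoclasts, differed by 2.37 to 6.38 in single pigs, and DCSTAMP, which drives the fusion of such cells, by 0.88 to 3.29. The cholesterol transporter NPC2 rose by 1.38. The members that fell were CYP27A1 (-2.14), LPL (-2.05), CHIT1 (-1.42), TFRC (-0.95), PLIN2 (-0.93), OLR1 (-0.83) and FABP5 (-0.78). LPL, PLIN2 and TFRC, which take up and store fatty acids and iron, are also used by heart muscle. In pig 15 LPL differed by -0.13 and CYP27A1 by -0.99. Of 26 lysosome and endocytosis genes 13 were higher and 4 lower (median 0.37). The proteases CTSH (2.80) and CTSB (0.72) and the enzymes ASAH1 (1.58) and GUSB (2.25) rose. LAMP2 (-0.65), the regulator TFEB (-0.67), MCOLN1 (-0.48) and NEU1 (-0.33) fell.

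Complement and coagulation genes rose in most cases. Of 24 measured 18 were higher and 3 lower, with a median of 1.38, which was 0.80 under normexp and 0.75 under the authors' values. C2, a protease of the classical pathway, rose by 2.53 ± 0.16 and C6, a part of the membrane attack complex, by 3.84 ± 0.25. The receptor C5AR1 rose by 2.09 and C7 by 1.87. Tissue factor F3 fell by 0.95 and CFD, which fat tissue also secretes, by 0.47. C5 is uncertain, since its 2 probes gave -1.47 and 1.04. Of 24 antigen presentation genes 15 were higher and none lower (median 0.61), among them IFI30 (2.38), CTSS (1.86) and the class II chains SLA-DQA1 (1.12) and SLA-DQB1 (0.95). Of 26 interferon-induced genes 15 were higher and none lower (median 0.60), with MX1 at 1.30, EIF2AK2 at 0.96 and IFIH1 at 0.91. The list mean in pig 11 was -0.02, and in pig 14 it was 1.21.

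Chemokines and cytokines were higher in 20 of 37 cases and lower in 1 (2 without pig 15). The median was 0.90, and 0.46 under normexp and 0.35 under the authors' values. CXCL14, a chemokine of epithelia and stroma, was at 0.126 to 0.488 (median 0.209) in the normal region and 2.21 to 9.92 (median 6.95) in the core, and its difference of 4.73 ± 0.24 was between 3.80 and 5.33 in every pig. The B cell factor TNFSF13B rose by 2.20, CCL19, which draws lymphocytes, by 2.16, and caspase 1 (CASP1), which processes interleukins, by 1.68. Interleukin 1 beta (IL1B) rose by 1.47 ± 0.19, but TNF did not pass at -0.15 ± 0.20 (limma adjusted p = 0.539). IL15 fell by 0.71 ± 0.15, with 0.01 in pig 15.

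Lymphocyte genes were higher in some pigs more than in others. Of 21 T and NK cell markers 9 were higher, 1 was lower and 11 did not pass, with a median of 0.89. Leaving out pig 10, 14, 16 or 18 left 6, 5, 4 and 4 higher, and without pig 15 2 were lower. Under quantile scaling and normexp 6 were higher, with medians of 0.81 and 0.48, and of the 15 held by the authors' values 4 were, with a median of 0.32. The list mean was 0.52, 0.01, 0.73, 0.30, 1.63 and 1.70 in pigs 10, 11, 14, 15, 16 and 18. NKG7 (1.66 ± 0.19), ICOS (2.34 ± 0.34), CD247 (1.27 ± 0.27) and CD3D (1.44 ± 0.36) rose, and GZMB fell by 0.42 ± 0.11. CD3D, a chain of the T cell receptor complex, was at 0.131 to 0.318 (median 0.273) in the normal region and 0.224 to 1.95 (median 0.533) in the core. The regions overlapped, and the 2 highest core values, 1.54 and 1.95, were those of pigs 16 and 18. CD3E passed only narrowly at 0.95 ± 0.34 (limma adjusted p = 0.0452), and was past the threshold no longer when pig 10, 14, 15, 16 or 18 was left out, at 0.69 to 1.08. It was 0.69 without pig 16 and 0.71 without pig 18 (limma adjusted p = 0.117 and 0.119). Of 7 B and plasma cell markers 5 were higher (median 0.95): FCRLA (1.80), the B cell chemokine CXCL13 (3.16), XBP1 (0.95), PRDM1 (1.46) and, named after its value was seen, DERL3 (0.55). PAX5 fell by 1.06 ± 0.26. The B cell marker MS4A1 did not pass, and CD79A was too dim to be measured. Of 9 mast cell and neutrophil markers 2 were higher, MS4A2 (0.87) and KIT (0.48), and 7 did not pass, with a list mean from -0.62 in pig 11 to 1.75 in pig 15. Without pig 15, 3 of those 7 were lower, CXCR2 (-0.87), GATA2 (-0.32) and, named after its value was seen, LTF (-0.60), and the list median went from 0.48 to 0.26. Without pig 10, 14, 16 or 18 only 1 was higher.

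Endothelial genes were lower or did not pass. Of 17 endothelial markers 8 were lower, none was higher and 9 did not pass, with a median of -0.35 (-0.23 under the authors' values). Von Willebrand factor (VWF) fell by 0.79 ± 0.11, the tight junction protein CLDN5 by 0.83 ± 0.14 and the VEGF receptor KDR by 0.55 ± 0.16. CD36 (-2.01) and FABP4 (-0.89), which carry fatty acids and are expressed in heart muscle or fat as well, fell further. PECAM1, found on all endothelium, did not pass at -0.13 ± 0.10, and was above 0 under quantile scaling, normexp and the authors' values without passing. KDR was past the threshold no longer when pig 10, 14, 16 or 18 was left out, at -0.45 to -0.54. Of 4 lymphatic markers PROX1 (-1.93), which is also on the list of cardiac transcription factors, and VEGFD (-1.63) fell. CCL21 rose by 1.08 and LYVE1 did not pass (-0.24). The median was -0.94, but -0.55 under normexp and -0.04 over the 3 held by the authors' values. Of 27 angiogenic and hypoxia signals 5 were higher and 11 lower, both near the shares over all genes (median -0.06). VEGFA, the main growth factor of endothelium, was at 3.51 to 4.05 (median 3.63) in the normal region and 0.812 to 2.13 (median 0.982) in the core, without overlap, and fell by 1.72 ± 0.21. FGF1 fell by 2.10 and the oxygen sensor EGLN1 by 1.10. The 5 higher members were FGF7 (2.97), ANGPTL2 (2.55), ANGPT1 (2.17), JAG1 (0.57) and HIF1A (0.45).

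Of 12 smooth muscle and pericyte markers 4 were higher, 4 lower and 4 not past, close to the 26.7% and 32.7% of all genes. The split depended on single pigs, with 6 lower without pig 15, 7 lower without pig 11 and 2 higher without pig 14. Their median of -0.33 turned to 0.16, 0.17 and 0.18 under quantile scaling, normexp and the authors' values. SMTN (-1.52), PLN (-1.92), ABCC9 (-1.10) and KCNJ8 (-1.25) fell, and PLN and ABCC9 are active in cardiomyocytes too. CSPG4, a pericyte proteoglycan, rose by 1.39, as did 3 genes named after their values were seen, CNN1 (1.46), TPM2 (0.46) and MCAM (0.48). Smooth muscle actin, ACTA2, which also marks myofibroblasts, depends on the probe. Its brightest probe differed by -0.56 ± 0.24 and did not pass, while 4 of its 7 probes were higher, by 2.09 to 2.38.

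Contractile genes of heart muscle fell. All 7 thick filament and M band genes were lower, against 32.7% of all genes, with a median of -1.74. MYH6, the fast myosin heavy chain, was at 9.68 to 404 (median 77.4) in the normal region and 6.94 to 35.1 (median 12.6) in the core and fell by 2.49 ± 0.58. The M band protein MYOM2 fell by 2.60, the myosin chaperones SMYD1 and UNC45B by 1.88 and 1.74, and the light chain MYL2 by 1.01 ± 0.21. MYH7, the slow myosin heavy chain and main motor of the ventricle, was at 1319 to 2158 (median 1868) and 765 to 1820.2 (median 1231) and fell by 0.53 ± 0.12 (limma adjusted p = 0.00786). Under quantile scaling that MYH7 value was -0.01, under normexp -0.07 and under the authors' values -0.0021, none of them past the threshold. MYH7 had 8 probes, all lower, and the fall ran from 0.53 at its brightest probe to 1.77 at its dimmest.

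Of the MYH7 probes 4 are printed because the size of the change depended on the probe. The first pair overlaps and the capitals mark the 41 bases they share, and both gave -1.17. The other pair shares no run of bases over 7 and gave -1.66 and -1.77.
MYH7 probe with -1.17: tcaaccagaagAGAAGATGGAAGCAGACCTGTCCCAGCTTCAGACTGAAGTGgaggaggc
MYH7 overlapping probe with -1.17: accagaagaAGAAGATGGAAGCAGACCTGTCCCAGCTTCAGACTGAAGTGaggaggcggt
MYH7 probe with -1.66: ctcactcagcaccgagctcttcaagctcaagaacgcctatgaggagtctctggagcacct
MYH7 probe with -1.77: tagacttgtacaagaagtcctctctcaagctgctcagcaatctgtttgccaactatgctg
The overlapping probes thus gave the same value, and the other pair larger falls.

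Of 23 thin filament and Z disc genes 15 were lower and 1 higher, with a median of -0.92 (-0.53 under quantile scaling, -0.52 under normexp and -0.57 under the authors' values). Titin (TTN), the molecular spring of the sarcomere, fell by 1.85 ± 0.26 and on all 11 probes. LDB3 fell by 2.15, TCAP by 1.86 and MYOZ1 by 1.08. Cardiac actin (ACTC1) passed only narrowly at -0.75 ± 0.27 (limma adjusted p = 0.0496), and was past the threshold no longer when pig 10, 14, 15, 16 or 18 was left out, at -0.62 to -0.80, or under quantile scaling, at -0.10. XIRP2, an actin-binding protein of cell junctions, was the member that passed in the higher direction (0.97 ± 0.33, limma adjusted p = 0.0387), and it was past the threshold no longer when pig 10, 11, 15 or 16 was left out, at 0.70 to 1.01, and was 0.04 in the fit of all 24 arrays. Of 15 calcium cycling genes 11 were lower and 3 higher, with a median of -1.09. The pump ATP2A2, which refills the sarcoplasmic reticulum, was at 79.2 to 172 (median 135) in the normal region and 16.1 to 82.2 (median 20.5) in the core and fell by 2.26 ± 0.32, with -0.68 in pig 15. Of its 20 probes 19 were lower. The release channel RYR2 fell by 1.97 ± 0.35, the exchanger SLC8A1 by 1.20, the kinase CAMK2D by 1.83 and the channel subunit CACNB2 by 2.16. The members that rose were BIN1 (1.24), ASPH (1.87) and CALR (0.47).

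Genes of electrical activity and of cardiomyocyte identity fell in most cases. Of 17 ion channel and connexin genes 11 were lower and 3 higher (median -1.06). Connexin 43 (GJA1), which couples ventricular muscle cells, fell by 1.06 ± 0.17, and the potassium channel subunit KCNE1 by 1.26. The channel genes CACNA1D (1.90) and TRPC1 (1.16) and connexin 45 (GJC1, 0.52) rose. Of 16 cardiac transcription factors 13 were lower and none higher (median -1.03). EYA4 fell by 3.24 ± 0.37 and was well above background in 1 of 6 core samples. PROX1 fell by 1.93, MYOCD by 1.71, GATA4 by 0.98 and the mitochondrial regulator PPARGC1A by 1.99 ± 0.28.

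Load-response genes did not move together. Of 17 natriuretic peptide and stress genes 7 were higher and 5 lower, the latter near the share over all genes, and the median of -0.14 and the mean of 0.58 differed in sign, the median turning to 0.13 under quantile scaling and 0.09 under normexp. B-type natriuretic peptide (NPPB) was at 2.10 to 87.6 (median 10.3) in the normal region and 63.8 to 354 (median 147) in the core and rose by 3.58 ± 0.83 (limma adjusted p = 0.00854). Its difference ran from 0.91 in pig 15 to 7.40 in pig 11, and the lowest core value lay below the highest normal region value. Atrial natriuretic peptide (NPPA) was higher in the core of 5 pigs and lower in pig 15 (-2.13), and at 1.66 ± 0.74 it did not pass (limma adjusted p = 0.094); without pig 15 it passed at 2.42 (limma adjusted p = 0.00514). UCHL1 rose by 2.30, GDF15 by 1.71 and MYC by 0.80. MYH7, which is on this list too, JUN (-0.86), HSPB1 (-0.84), the receptor NPR1 (-0.76) and skeletal actin ACTA1 (-0.60) fell. The ACTA1 value was -0.06 under quantile scaling and not past the threshold.

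Genes of energy metabolism fell with few exceptions. Of 28 fatty acid oxidation genes 27 were lower and 1 higher, with a median of -1.69. For 14 of them the regions did not overlap, against 7.56% of all genes. All 23 measured genes of the TCA cycle and pyruvate dehydrogenase were lower (median -1.73), as were 31 of 32 of the respiratory chain and ATP synthase (median -1.58). PDK4, the kinase that turns muscle from sugar to fat, was at 53.5 to 172 (median 132) in the normal region and 18.7 to 31.9 (median 27.7) in the core and fell by 2.09 ± 0.23. The hormone-sensitive lipase LIPE fell by 2.58, the transporter SLC27A1 by 1.34 and DECR1 by 1.28. CPT1A, the liver form of the enzyme that brings fatty acids into mitochondria, rose by 0.92 ± 0.15. In the TCA list IDH3B fell by 2.25, SUCLG1 by 1.86, PDHB by 1.64 and SUCLG2 by 1.31. In the respiratory chain COX8H fell by 2.54, NDUFS6 by 1.69, NDUFS5 by 1.09 and NDUFAB1 by 0.90, while COX6A1, the liver form of a subunit, rose by 0.52 ± 0.10. In pig 15 the fatty acid oxidation mean was -0.41 and in the others -1.20 to -2.18. Without pig 15 the medians of these 3 lists were -1.94, -1.98 and -1.83.

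Most genes of glycolysis fell. Of 31 glycolysis and creatine energy genes 23 were lower and 5 higher, with a median of -1.04. PRKAG3, a subunit of the energy sensor AMPK, was at 0.390 to 2.13 (median 1.06) in the normal region and 0.0667 to 0.495 (median 0.279) in the core. It fell by 2.22 ± 0.14 (limma adjusted p = 0.000321). Its p was the smallest of the genes that fell by over 2-fold on average and fell in all 6 pigs. Pig 15 was no exception for it, with -2.31 against -1.60 to -2.55 in the others. Myoglobin (MB), the oxygen store of muscle, was at 59.7 to 132 (median 79.7) and 10.4 to 47.9 (median 15.3), without overlap. PGAM2 fell by 2.48 and TPI1 by 1.31. The 5 that rose were HK2 (1.82), TKT (1.0), LDHA (0.94), TALDO1 (0.72) and PGD (0.44), of which TKT, TALDO1 and PGD belong to the pentose phosphate pathway. GAPDH, often used as a reference gene, fell by 0.60 ± 0.12, but was at -0.0034 under quantile scaling and -0.11 under the authors' values, past the threshold in neither.

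Of 17 mitochondrial ribosome genes 15 were lower (median -1.0), among them MRPL3 (-1.13), MRPL46 (-1.33), MRPL2 (-1.41) and MRPS18B (-1.45). All 23 proteasome and muscle ubiquitin ligase genes were lower (median -0.78), with the muscle ligase subunit ASB15 at -2.94 and the proteasome subunits PSMC5 at -1.01, PSMB7 at -0.91 and PSMB4 at -0.78. The cytosolic ribosome had no settled direction. Here 11 of 48 genes were lower and 1 higher (3 higher without pig 15), with a median of -0.15. Leaving out pig 10, 14, 16 or 18 left 5 lower. Under quantile scaling 38 were higher and 0 lower, and under normexp 42 and 0, with a median of 0.43 in each. Of the 42 held by the authors' values 36 were higher and 0 lower, with a median of 0.39. RPL3 rose by 1.00 ± 0.13, while RPL13A (-0.56), RPLP0 (-0.46) and RPS24 (-0.41) fell, of which RPLP0 and RPS24 turned positive under those 3 scalings. Of 31 antioxidant and metal-binding genes 17 were lower and 6 higher (median -0.44). The mitochondrial reductase TXNRD2 (-1.36), NQO1 (-0.97) and MGST1 (-1.62) fell. Haem oxygenase (HMOX1) rose by 1.79 ± 0.23, and GSTA4 (0.85), GCLC (0.77), the ferritin chain FTL (0.74), GPX1 (0.64) and TXN (0.43) rose too.

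**Figure D4:**
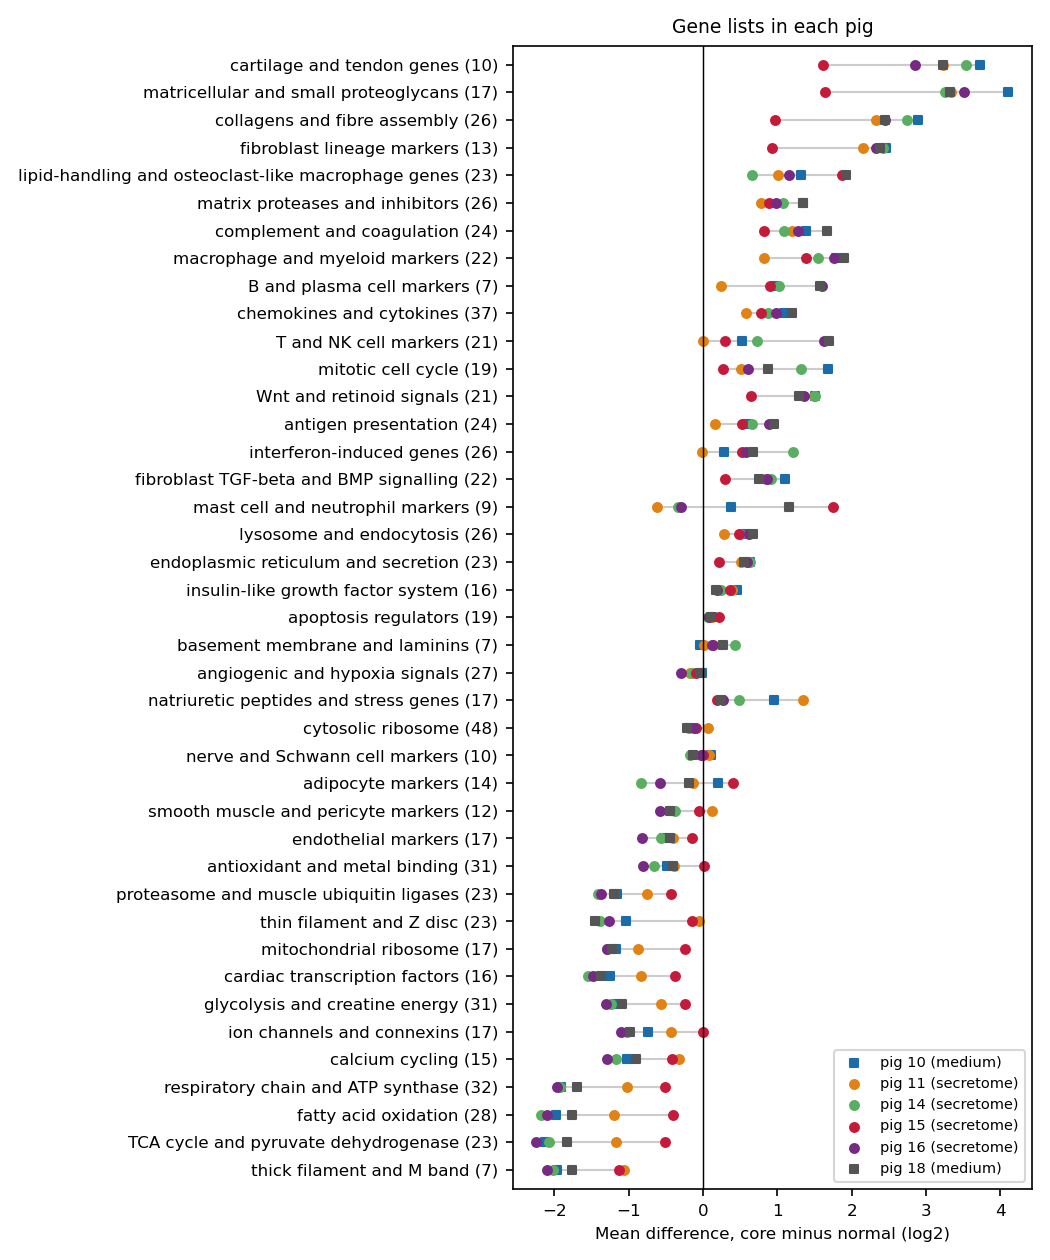
Mean difference between infarct core and normal region (horizontal axis, log2) of each gene list with at least 7 measured genes, 1 point per pig, with the number of measured genes in parentheses; squares are medium pigs, circles secretome pigs. Matrix lists lie at the top right, with pig 15 lowest at 0.97 for collagens, and muscle and mitochondrial lists at the bottom left, with pig 15 at -0.41 for fatty acid oxidation.

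Cell cycle genes were higher or did not pass. Of 19 measured 11 were higher and none lower (median 0.88). Under normexp 7 were higher, with a median of 0.28, and of the 14 held by the authors' values 3 were, with a median of 0.15. The members included CCNB2 at 2.14 ± 0.43, KIF15 at 2.05 ± 0.29, TOP2A at 1.28 ± 0.24 and PLK1 at 0.88 ± 0.19. KIF15 and CCNB2 were well above background in 1 of 6 normal region samples each. Of 19 apoptosis regulators 9 were higher, above the 26.7% of all genes, and 7 lower, near the 32.7%, with a median of 0.25. Leaving out pig 10, 14, 16 or 18 left 3 or 4 lower, as did other scalings, and 6 were higher without pig 10 or 18. The death promoters PMAIP1 (2.27) and BAX (1.21) and BNIP3L (0.95) rose. The mitochondrial proteins CYCS (-1.76) and DIABLO (-1.04), and BAK1 (-0.60), BCL2L1 (-0.60) and FAS (-0.40), fell. CASP10 is uncertain: of its 6 probes the brightest gave -0.31, a second was called lower at -0.28, and the 3 dimmest were called higher at 0.75 to 0.89. The brightest turned to 0.33 under quantile scaling, 0.34 under normexp and 0.23 under the authors' values.

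Markers of cell types that a core sample might hold were read as well. Of 14 adipocyte markers 2 were higher and 6 lower (median -0.27). SCD, which desaturates fatty acids, was at 0.217 to 0.50 (median 0.272) in the normal region and 1.13 to 3.24 (median 1.73) in the core, and its difference was between 2.11 and 2.92 in every pig. The transcription factor CEBPA rose by 2.06, whereas DGAT2 fell by 1.95, and adiponectin (ADIPOQ), a hormone of fat cells, did not pass at 1.32 ± 0.91, with 5.53 in pig 10 and -1.93 in pig 14. Of 6 markers of mesothelium and epicardium, the outer lining of the heart, 3 were higher (median 1.91): TBX18 (2.62), KRT8 (2.49) and UPK1B (1.97). Without pig 10, and under normexp and the authors' values, 2 were higher, and the median was 0.72 under normexp and 0.48 under the authors' values. KRT18 did not pass at 1.85 ± 0.81. Of 10 nerve and Schwann cell markers 2 were higher, UCHL1 and GFAP (0.68), and 2 lower (3 without pig 15), PMP2 (-1.0) and DBH (-0.43), below the shares over all genes, with a median of -0.16. Of 3 red blood cell genes beta globin (HBB) fell by 2.25 ± 0.28, while HEMGN (-0.32) and EPB42 (0.41) did not pass, and the list median was -0.32. HBB was well above background in 2 of 6 core and 4 of 6 normal region samples.

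Ranked by p, the leading genes came both from these groups and from outside them. The ranking took genes that changed by over 2-fold on average and in the same direction in all 6 pigs. Of those that rose, the smallest p values were those of SIX4, TMEM158, CLEC7A, TNMD, SCD, CXCL14, STEAP1, PTN, MCT7, SAG, COL11A1 and ADAM28. SIX4, a homeobox factor of muscle precursors, and STEAP1, a protein of the cell membrane, were not well above background in any of the 6 normal regions and were at least 9.77-fold and at least 3.83-fold higher. Both were kept through the core arrays alone, and TNMD lay near background in most normal regions. The p of these genes sets a core signal against values near background, so their rank is not read as a result. CLEC7A, the beta-glucan receptor of phagocytes, rose by 3.55 ± 0.17 and was well above background in 2 of 6 normal regions. TMEM158 rose by 2.36, the mast cell tryptase MCT7 by 3.48 and the metalloprotease ADAM28 by 3.02. Those that fell by over 2-fold with the smallest p included PRKAG3, PGM1, HAPLN3 (-2.34), SGMS1 (-1.32), AK8 (-1.88), the glucose transporter SLC2A12 (-1.69), SOX-6 (-1.45), USP45 (-1.38), THTPA (-1.04), SMYD3 (-1.85) and NUDT16 (-1.32). Cholecystokinin (CCK), a peptide hormone, was at 149 to 557 (median 355) in the normal region and 9.25 to 102 (median 12.9) in the core, without overlap. It fell by 4.25 ± 0.41 (limma adjusted p = 0.00059), which is 19.1-fold.

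SAG, which encodes the visual arrestin of the retina, is uncertain. Of its 3 probes the brightest in these samples rose by 3.46, another fell by 1.56 and the third did not pass at 0.48. The first 2 are printed to show that they read different stretches, and the longest run of bases they share is 7.
SAG probe that rose: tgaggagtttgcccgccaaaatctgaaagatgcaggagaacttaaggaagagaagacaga
SAG probe that fell: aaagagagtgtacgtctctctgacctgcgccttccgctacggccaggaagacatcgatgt
Opposing calls of this kind were rare: of 2891 genes with at least 2 kept probes 38 had 1 probe called higher and 1 called lower, and 1377 had all probes called in the same direction.

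Some genes had changes that belonged to single pigs. Among genes well above background on all 12 arrays, the largest standard deviations of the difference were those of BDNF, NPPB, CRABP1, ARG1, CCL26, S100A8, NPPA and TCN1. CRABP1, a retinoic acid binding protein, was at 0.105 to 5.16 (median 0.514) in the normal region and 11.9 to 130.5 (median 36.6) in the core. Its difference was 7.02, 7.97, 5.99, 1.21, 6.53 and 7.36 by pig, so that 5 pigs lay at 5.99 or above and pig 15 at 1.21. TCN1, a vitamin B12 carrier of neutrophil granules, differed by 0.84, -0.28, 1.60, 4.76, 4.09 and 3.27, highest in pig 15. S100A8, a calcium-binding protein of neutrophils and monocytes, was 3.71 and 3.85 higher in the cores of pigs 15 and 18 and between -0.87 and 1.05 in the others. ARG1, which splits arginine, was 4.43 higher in pig 18 and lower in the core of the other 5. CCL26, a chemokine for eosinophils, and BDNF, a growth factor of neurons, were higher in the core of pig 15 by 3.40 and 4.20 and lower in the core of all others. The most even changes over 2-fold were those of THTPA, CST3 (1.22), NTHL1 (-1.01), PLCL2 (-1.01), SGMS1, PLEKHO1 (1.06), AARS2 (-1.02) and MTG1 (-1.06), with standard deviations of 0.12 to 0.22 over pigs.

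The border zone of the same 6 pigs was read next to the core. Between border zone and normal region limma called 0 of 32028 probes, while 3127 (9.76%) had an unadjusted p under 0.05. Between infarct core and border zone it called 6637 (20.7%) higher and 7604 (23.7%) lower in the core, and 52.7% had an unadjusted p under 0.05. For collagens the median difference was 0.66 from normal to border and 1.61 from border to core. The pigs divided at the first step: the border zone was 1.18, 1.59 and 1.81 above the normal region in pigs 10, 16 and 18 for the collagen mean, 0.43 in pig 15, and 0.02 and -0.29 in pigs 14 and 11. For macrophage markers these border values were 0.28, 0.94 and 1.12 in pigs 10, 16 and 18, and 0.09, -0.30 and -0.27 in pigs 15, 14 and 11. For fatty acid oxidation they were -0.43, -0.69 and -1.07 in pigs 10, 16 and 18, -0.25 in pig 15, and 0.01 and 0.12 in pigs 14 and 11. Over all genes the border zone differed over 2-fold from the normal region for 361 genes higher and 104 lower in pig 10, 417 and 110 in pig 16, and 625 and 410 in pig 18. In pigs 11, 14 and 15 these counts were 33 and 72, 43 and 59, and 147 and 62. The border zone arrays of pigs 11 and 15 lay on another slide than the other 2 of the pig.

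Whether a gene changed more from border to core than from normal to border was tested as a difference of the 2 steps. No probe of 32028 passed (3790, or 11.8%, had an unadjusted p under 0.05). The genes with the smallest p, named by rule, are given as a description. WISP2 differed by 0.23 from normal to border and by 2.35 from border to core, and PRKAG3 by -0.27 and -1.95 (limma adjusted p = 0.400 for both). ACP5 differed by 0.43 and 3.86 and DCSTAMP by -0.51 and 2.36 (limma adjusted p = 0.411 for both). CSTB, a cathepsin inhibitor, differed by 0.09 and 1.10, OSTM1, a lysosomal protein of osteoclasts, by -0.11 and 0.74, and EYA4 by -0.44 and -2.80. ATP6V0A4, a proton pump subunit, was 1.44 higher in the border than in the normal region and 1.74 lower in the core than in the border, so that core and normal region differed by -0.95 to 0.64 in single pigs.

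Whether the 2 arms differed in this comparison was tested too. With 4 secretome and 2 medium pigs limma called 0 probes for the difference between arms, and 637 (2.10%) had an unadjusted p under 0.05. In simulated data with 200 changed probes the same test recovered 0 at 2-fold and 97 at 4-fold. A 2-fold difference between arms in that many probes would thus probably have been missed. The smallest p among genes was that of SLCO1A2, an organic anion transporter. It was 2.26 and 2.44 higher in the core of pigs 10 and 18 and between -0.79 and 0.34 in the secretome pigs, a difference of -2.67 ± 0.35 between arms (limma adjusted p = 1.00). It was well above background on 4 of 6 core and 2 of 6 normal region arrays. CLDN3, a tight junction gene of epithelia, SERPINE3 and UPK1B had differences between arms of -2.08, -3.86 and -2.84 that did not pass either. UPK1B, a marker in the mesothelium list, was 3.09 and 4.64 higher in the medium pigs and 0.34 to 1.51 in the others. SERTM1 (1.13) and PNMT (1.51) led the opposite direction.

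Scan series split the pigs too, with pigs 16 and 18 in the first and 10, 11, 14 and 15 in the second. Limma called 0 probes for the difference between the series, and 1540 (5.07%) had an unadjusted p under 0.05. T cell genes led those with higher values in the first series. CD3D was 2.68 and 2.86 higher in the cores of pigs 16 and 18 and 0.62 to 1.08 in the other 4 (difference of the series -1.99 ± 0.22, limma adjusted p = 0.483). CD8A (-2.19), CD3G (-2.27), GZMK (-2.86), CD3E (-1.85) and SIT1 (-1.77) gave the same picture with the same adjusted p. For GZMK, a granzyme of memory T cells, pigs 16 and 18 were at 2.29 and 2.87 and the others between -0.76 and 0.31. The T and NK median was 2.18 within the first series and 0.33 within the second, and with 2 and 4 pigs the series and the pigs cannot be told apart. In the other direction RYR1, the calcium release channel of skeletal muscle, was lower in the core of pigs 16 and 18 (-2.38 and -1.42) and higher in that of the other 4 (0.43 to 1.46). It was well above background on 5 of 6 core and 2 of 6 normal region arrays. The main lists kept their direction in both series: collagens were at 2.42 and 2.19, macrophage markers at 1.69 and 1.22, thick filament genes at -1.84 and -1.46 and fatty acid oxidation at -2.05 and -1.52.

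**Figure D5:**
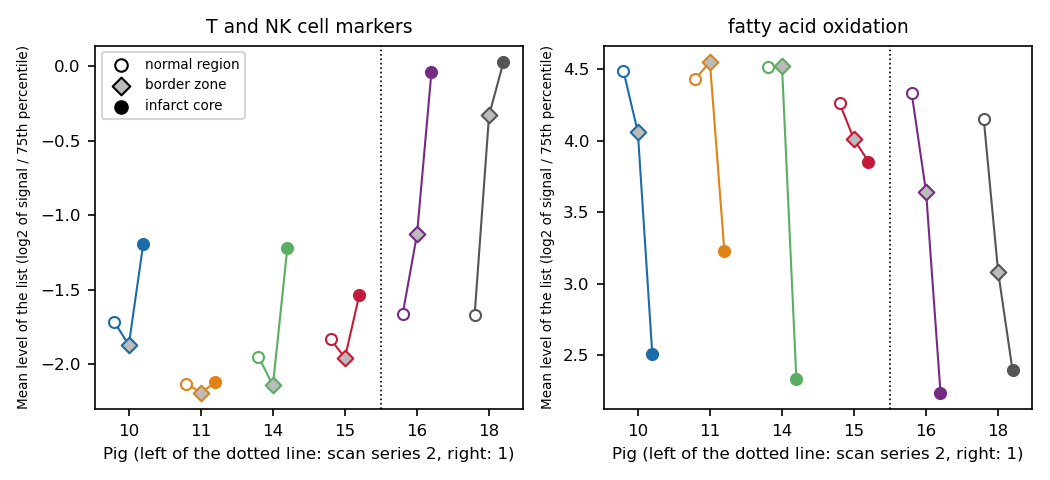
Mean level of the T and NK cell markers (left) and of the fatty acid oxidation genes (right) in the normal region, border zone and infarct core of each pig (vertical axes, mean log2 of relative signal; the dotted line separates scan series 2 on the left from 1 on the right). The T and NK level of the core rises to -0.04 and 0.03 in pigs 16 and 18 and stays between -2.12 and -1.20 in the other 4, whereas the fatty acid oxidation level of the core lies at 3.85 in pig 15 and at 2.24 to 3.23 in the others.

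The infarct cores of pigs 12, 13 and 40, which had no normal region array and took no part in the fit, were set against the 6 normal regions. Of the 743 genes called over 2-fold higher, 616 lay above all 6 normal regions in all 3 of these cores and 0 below; over all 6003 genes read there 1158 (19.3%) did. Of 686 genes called over 2-fold lower that were read there, 644 lay below all 6 normal regions in all 3 and 0 above, against 1890 (31.5%) of all genes. The collagen level, a mean log2 over the list, was 2.38, 2.77 and 2.69 in pigs 12, 13 and 40, where the normal regions reached at most 1.20. The fatty acid oxidation level was 2.52, 1.90 and 1.04, where the normal regions were at least at 4.15. The thick filament level was 3.11, 2.48 and -1.21, so that pig 40 lay far below every other core, the lowest of the 6 being 2.83. The T and NK level was -1.54, -1.11 and 0.29, while the 6 cores of the fit lay between -2.12 and 0.03. Cores of the first scan series thus differed among themselves in this level. Some other lists overlapped with the normal regions. The antigen presentation level was 2.69, 2.86 and 4.03, where the normal regions reached 2.84. That of interferon-induced genes was 0.97, 1.76 and 1.74, where they reached 1.63. All 3 of these arrays belong to the first scan series, and they shared the normal regions with the main comparison.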

How the data were processed

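Infarct core and normal region of 6 pigs, and the border zone of the same pigs, were read on 1-colour Agilent arrays. Per the file headers, spot intensity was measured with Agilent Feature Extraction 10.7.3.1, and the deposited processed signal is background-subtracted but not scaled between arrays. The authors' deposited value table holds log2 values for 33348 probes, centred on about the same median. The submitters' processing notes name limma 3.14.4, with nothing stated of its role, offset or filter. Here log2 of the processed signal minus the 75th percentile of the array was used, control spots and 40 probes with outlier spots were dropped, and 30377 probes were kept, each of them well above background in 6 or more of the 12 arrays. A fit with limma 3.58.1 in R 4.3.3 had the region and the pig as terms, which holds the slide and the scan series of the pair too. Fits for the border zone used 18 arrays, and those for arms and scan series the pigs' differences. Samples were grouped by their labels, and nothing says that an array repeats another; array correlations were 0.8763 to 0.9909.

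The pairing comes from the pig number in the labels: both arrays are of the same animal. Fitted without the pig, 10315 probes passed in place of 16563. Probes were named through their accession or gene ID in RefSeq's gene table and otherwise by the array files, and a gene was read from its brightest kept probe with 1 symbol. In data simulated from these arrays with 200 changed probes, the paired test recovered 0 at 1.5-fold, 120 at 2-fold and 197 at 4-fold. Far fewer probes changed there than passed in the data, which makes the adjusted threshold stricter. These counts thus do not set the smallest change that could be called here.

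Genes named were, by a rule, the 12 higher and 12 lower genes with the smallest p past the threshold, over 2-fold and of 1 sign in all 6 pigs; up to 4 of smallest p per list with every member past it against the list's majority; up to 8 per direction in the tests of arm, scan series and border step; the 8 most and 8 least variable; and 37 set genes. Some of these genes are not reported here. The members and lists were chosen with earlier results of these data known. Alternatives were quantile scaling, normexp with an offset of 50, percentiles over detected probes, the authors' values, other filters, a variance trend, other blocks, all 24 arrays, each scan series and leaving out each pig. The number of arrays limits the precision.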

Additional observations from a re-analysis of the deposited data

Results flagged for a closer look

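In some results 1 of the 6 pigs lay far from the other 5, by Dixon's test of the gap to the nearest pig at the 95% level, which chance alone passes in about 1 in 20 groups. Among the 44 lists this held for 6, and in all of them the far pig was pig 15. Its list mean was 0.97 for collagens, against 2.33 to 2.89 in the other pigs, 1.65 for matricellular genes, against 3.26 to 4.11, and 0.93 for fibroblast lineage markers, against 2.15 to 2.46. It was 0.64 for Wnt and retinoid signals, against 1.30 to 1.51, and 0.21 for endoplasmic reticulum and secretion, against 0.51 to 0.64. For apoptosis regulators pig 15 lay above the others, at 0.21 against 0.07 to 0.12.

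Among the 281 named genes this held for 29. In 24 of them the far pig was pig 15. Of the genes that rose, its differences were 1.58 for COL1A1, 1.27 for COL1A2, 2.39 for FN1, 2.35 for FMOD, 1.17 for SPARC, 1.14 for VIM, 1.38 for TGFB3, 0.99 for MMP2, 0.91 for TBX18, 0.94 for IGFBP6, 0.74 for ANGPTL2, 1.21 for CRABP1, 0.43 for ASPH and 0.29 for TRPC1. In each of these pig 15 was the lowest. Of the genes that fell, its differences were -0.89 for USP45, -0.85 for PDK4, -0.80 for MB, -0.36 for FABP4, -0.33 for CD36, -0.29 for STC2, -0.99 for CYP27A1, -0.13 for LPL and 0.0075 for IL15, nearer to 0 than in any other pig. CXCR2, a chemokine receptor of neutrophils, was 0.91 higher in the core of pig 15 and between -1.30 and -0.51 in the others.

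In the other 5 genes another pig was far from the rest. MGST1 differed by -2.76 in pig 10 and by -1.57 to -1.10 in the others. S100A4 differed by 4.51 in pig 18, against 2.01 to 2.81, and ARG1 by 4.43 in pig 18, against -1.81 to -0.49. EPB42 was -0.60 in pig 14, against 0.27 to 0.79, and CD163 was 0.29 in pig 11, against 1.04 to 1.48.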

How the results depend on the processing

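The paired counts of 7383 probes higher and 9180 lower stayed within 1.5 times under every alternative but the following. Within scan series 2 alone, with 4 pigs, 3938 were higher and 3927 lower, 7865 in all. Without the replicate block, that is with the pigs unpaired, 5382 were lower and 10315 passed in all. Leaving out each pig in turn gave 5850 to 8294 higher, 7048 to 10344 lower and 12898 to 18638 in all, with the highest counts without pig 15. The test between arms called 0 probes under every alternative that could be fitted. The test of the border step against the core step called 0 probes, 3 within scan series 2 and 5 with the pig as a random block. Of 4993 values of named genes under the alternatives, 4676 kept direction and side of the threshold, 267 lost the threshold, 26 gained it, 15 changed sign without passing in either and 9 reversed. Those 9 were, under quantile scaling, normexp and the authors' values, RPLP0 (0.22, 0.25 and 0.19), RPS24 (0.22, 0.19 and 0.17) and CASP10 (0.33, 0.34 and 0.23). The median of the cytosolic ribosome list went from -0.15 to 0.43, 0.43 and 0.39 under the same 3, and the cause was not tested. The medians of many of the 44 lists moved by over 1.5 times or changed sign: 12 under quantile scaling, 23 under normexp, 4 with the percentile over detected probes and 28 under the authors' values, which hold fewer of the genes. Of the 23 under normexp 19 kept their sign and came nearer to 0, as did 23 of the 28 under the authors' values. Under normexp and the authors' values the medians were 1.92 and 1.64 for cartilage and tendon (3.18 in the report), 0.34 and 0.28 for TGF-beta and BMP signalling (0.57), 0.60 and 0.38 for B and plasma cells (0.95), 0.40 and 0.39 for interferon-induced genes (0.60), and -0.64 and -0.30 for ion channels (-1.06). They were 0.16 and 0.07 for insulin-like growth factor genes (0.26), -0.07 and -0.02 for adipocyte markers (-0.27), -0.22 and -0.20 for antioxidant genes (-0.44) and -0.55 and -0.04 for lymphatic markers (-0.94). Under the authors' values alone they were -0.52 for cardiac transcription factors (-1.03), 0.27 for Wnt and retinoid genes (0.76), 0.03 for basement membrane (0.21), 0.13 for mast cells and neutrophils (0.48) and 2.72 for fibroblast lineage markers (1.81). Genes of the endoplasmic reticulum went up, from 0.32 to 0.52 under both. The respiratory chain median was -1.02 and -0.96 under quantile scaling and normexp (-1.58), with 31 of 32 lower in each, and the proteasome median -0.46 under normexp (-0.78). The slide was not fitted as a block, since both arrays of every pig share it.

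The share of higher among called probes was 44.6% and ranged from 42.4% to 50.1%. In the dim range, a gene near background in a region has a fold that only bounds the change. In the bright range, genes such as MYH7, GAPDH and ACTC1 depended on the scaling.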
